A study of Mus musculus with 20 samples.

Results

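Pancreatic tumours with floxed Cdkn2a-Arf and floxed Trp53 (KPAT) were compared with tumours with floxed Trp53 alone (KPT), 5 tumours a side, grouped by the genotype and library name in the labels. These are 10 of the 20 samples of the series. All mice carried KrasLSL-G12D, a Rosa26LSL-tdTomato reporter and Ptf1aCreER, a Cre recombinase that tamoxifen activates in cells expressing the acinar gene Ptf1a. Tamoxifen, 5 mg by gavage on each of 3 days, was given to all of them when 8 to 10 weeks old, and tumours were taken at morbidity. KPAT mice were Trp53 fl/fl and Arf fl/fl, and KPT mice were Trp53 fl/fl. The 5 KAT tumours (Arf fl/fl, Trp53 not floxed) entered the same model and are named where they place a value, and the 5 KT samples are not analysed here. Whole adenocarcinomas were profiled, so fewer cells of a type and less RNA per cell cannot be told apart.

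Arf and p16INK4a are made from overlapping reading frames of Cdkn2a. Arf binds MDM2, the ubiquitin ligase that degrades p53, and so stabilises p53, while p16INK4a inhibits the cyclin D kinases upstream of RB. Arf also acts without p53, among other places in the nucleolus, where it restrains ribosome production. The comparison asks what a floxed Arf allele adds where p53 can already be removed.

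Libraries held 14696138 to 26248484 reads. Of 16648 genes tested, 2752 passed limma's adjusted p of 0.05 (16.5%), 1520 of them higher (9.13%) and 1232 lower (7.40%) in KPAT, and the median log2 fold change over all tested genes was 0.02. The calls rest in part on single tumours, since 1686 were made without KPAT 2, 916 of them higher and 770 lower. Where a list count is given with 1 tumour left out, the total over all genes changed in that fit too. Along the leading principal component of the 10 tumours, which held 29.3% of the variance, KPT tumours lay at -80.8 to -18.6 and KPAT tumours at 30.3 to 63.4. KPT, KAT and KPAT libraries carry separate runs of numbers, and a batch along those numbers cannot be told apart from genotype. The labels do not say whether tumours shared a litter or a day. The p-values therefore set a group difference against the spread between tumours within groups, KAT included, and do not account for a batch or litter. Levels are deposited units, reads divided by 1 factor per library, given per tumour from 1 to 5 or as mean ± SD over the 5 tumours of a group. Fold changes are differences of log2(normalized count + 1), KPAT minus KPT, which understate the change of low genes. Genes are said to rise or fall where limma's adjusted p over all tested genes was under 0.05.

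The floxed genes were read first. Trp53 (ENSMUSG00000059552, chromosome 11, 69580359 to 69591873) was at 22.7, 23.5, 26.3, 26.1 and 22.8 in KPT and at 57.2, 44.7, 32.9, 36.6 and 38.3 in KPAT (log2 fold change 0.76, SE 0.15, limma adjusted p = 0.00560). Every KPAT tumour lay above every KPT tumour, as for 5.03% of all tested genes (4.93% had every KPAT tumour below, 9.97% in all without overlap). The gene was floxed in both groups, and KPAT tumours lay below every KAT tumour (99.0 to 148). Cdkn2a (ENSMUSG00000044303, chromosome 4, 89274471 to 89294653) was at 308, 304, 216, 322 and 335 in KPT and at 268, 365, 713, 854 and 907 in KPAT. KPAT 1 lay inside the KPT range and the other KPAT tumours above it, and the difference did not pass (log2 fold change 0.93, SE 0.45, limma adjusted p = 0.166). Which exons were floxed is not in the labels, and gene-level reads do not separate Arf from p16INK4a, so neither value checks recombination.

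**Figure D1:**
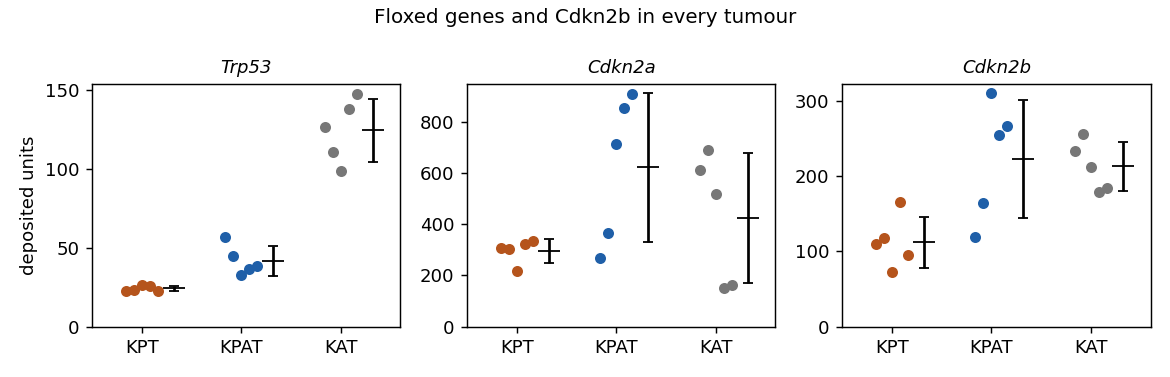
Levels of Trp53, Cdkn2a and Cdkn2b in deposited units on linear axes from 0, 1 point per tumour (5 a group), with the mean and SD beside each group. Trp53 lies at 32.9 to 57.2 in KPAT, between the KPT and KAT tumours, while the KPT and KPAT points of Cdkn2a overlap.

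Of 16 genes of the Cdkn2a locus and its regulators, 3 rose and 0 fell with limma or edgeR (18.8% called, beside 16.5% over all genes; 1 lower with DESeq2 and at an unadjusted p under 0.05). They were Trp53, Cdkn2b and Tbx2, a repressor of Arf transcription, whose call was lost without KPAT 1, KPAT 2, KPAT 4, KPAT 5, KPT 1, KPT 2, KPT 3 or KPT 5. Cdkn2b, the neighbour of Cdkn2a that encodes the CDK inhibitor p15INK4b, was at 110.2, 118, 73.2, 165 and 94.8 in KPT and at 119, 164, 311, 254 and 266 in KPAT (log2 fold change 0.95, SE 0.25, limma adjusted p = 0.0196). It rose, although KPAT 1 and KPAT 2 lay within the KPT range. Of 30 p53 target genes tested, 3 rose and 1 fell, with a median of 0.15. That is 13.3% called. Phlda3, which inhibits AKT signalling, rose from 40.4 ± 7.24 to 70.6 ± 19.2. Eda2r, a receptor of the tumour necrosis factor family, rose from 1.44 ± 1.11 to 5.59 ± 1.81. Zmat3, which encodes an RNA-binding protein, rose by 0.77 on the log2 scale, and its call was lost without any 1 of the KPAT tumours or KPT 1, KPT 2, KPT 3 or KPT 5. Pmaip1, which encodes the cell death protein NOXA, was at 233, 226, 157, 94.8 and 129 in KPT and at 60.2, 41.5, 66.1, 55.4 and 19.9 in KPAT (log2 fold change -1.82, SE 0.34, limma adjusted p = 0.00508). All KPAT tumours lay below all KPT tumours. Mdm2 (log2 fold change 0.11, SE 0.19, limma adjusted p = 0.719) and Cdkn1a, the gene of the cell cycle inhibitor p21 (log2 fold change -0.63, SE 0.32, limma adjusted p = 0.192), were named after their values were seen and did not pass.

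Of 20 genes of the RB pathway and G1 control, 10.0% were called, beside 16.5% over all genes. E2f3, an activator of S phase genes, rose and Cdkn2d, a CDK inhibitor, fell, each with a call lost without any 1 of several tumours (adjusted p up to 0.0936 and 0.0876). Of 26 genes of DNA replication and mitosis, 0 passed with limma, edgeR or DESeq2, and 0 had an unadjusted limma p under 0.05, with a median of -0.22.

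Genes of protein synthesis were lower in KPAT. Ribosomal proteins form the subunits of the cytosolic ribosome. Of 82 tested, 61 fell and 0 rose with limma (0 with edgeR or DESeq2 or at an unadjusted p under 0.05), and the median was -0.65. Rpl21 (ENSMUSG00000041453, chromosome 5, 146832890 to 146837032), a protein of the large subunit, was at 1167, 1079.6, 846, 838 and 851 in KPT and at 486, 448, 478, 506 and 542 in KPAT (log2 fold change -0.95, SE 0.11, limma adjusted p = 0.00113). The KPAT tumours lay close together below the lowest KPT tumour, beside KAT tumours at 432 to 507. Rpl5, which can bind MDM2 when ribosome assembly is disturbed, fell from 1388 ± 199 to 724 ± 48.1, and Rpl27a, another large subunit protein, fell from 973 ± 95.5 to 547 ± 78.1. Summed over the list, the levels were 82707, 82643, 60425, 61035 and 67231 in KPT and 50007, 39372, 43448, 48979.6 and 43925 in KPAT, with no overlap. KPT 1 and KPT 2 were the highest KPT tumours and KPAT 1 the highest KPAT tumour. Without KPT 1, KPT 3 and KPAT 5 together, an alternative named by an earlier analysis of these data, 35 ribosomal protein genes fell. For lists described below, the counts were 6 for the respiratory chain, 10 for the hypoxia response and 5 for glycolysis. They were 4 for general fibroblast genes and 5 for collagens. That fit held fewer tumours, and its list medians, ribosomal proteins first and in the same order, were -0.61, -0.30, -1.02, -0.78, 0.95 and 1.14.

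Ribosomal protein genes have many near-identical processed pseudogenes, and how reads with several places in the genome were counted is not given in the sources used here. Of 328 processed pseudogenes tested, 45 fell and 3 rose. Rplp0, which encodes a stalk protein of the large subunit, is uncertain for that reason. It fell by 1.34 on the log2 scale, while its copy Gm8730 was at 1423, 1398, 6.37, 286 and 475 in KPT and at 1010.2, 859, 871, 1021 and 890.4 in KPAT. Gm8730 was near absent in KPT 3 and at 2.25 to 4.17 in KAT. Rplp0 and Gm8730 together were at 2765, 2561, 2382, 2641 and 3314 in KPT and at 1803, 1573, 1587, 1787 and 1653 in KPAT. The sum, formed after the values were seen, did not overlap between the groups.

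Other genes of translation were lower in part. Of 66 initiation and elongation factors, 21 fell and 1 rose (median -0.28). Eif3h, a subunit of the factor that prepares the small subunit for messenger RNA, was at 404, 467, 397, 326 and 446 in KPT and at 231, 237, 235, 258 and 242 in KPAT (log2 fold change -0.75, SE 0.11, limma adjusted p = 0.00190). The groups did not overlap. Eif1, which guards start codon choice, fell from 511 ± 63.5 to 318 ± 22.8, and Eif4e3, a cap-binding relative of eIF4E, rose from 10.1 ± 1.98 to 17.7 ± 3.95. Of 77 mitochondrial ribosomal proteins, 20 fell (median -0.25), among them Mrpl45 at 67.5 ± 4.28 in KPT and 41.3 ± 4.99 in KPAT. Ribosome biogenesis went both ways, with 6 of 28 genes lower and 2 higher and a median of 0.01. Ncl, the gene of the nucleolar protein nucleolin, fell from 829 ± 122 to 512 ± 39.3. Fbl, which encodes the ribosomal RNA methyltransferase fibrillarin, fell from 126 ± 26.7 to 84.4 ± 4.58, and Pes1, a factor of large subunit maturation, fell from 106 ± 9.67 to 74.4 ± 5.62. Bop1, the partner of Pes1 in the same complex, rose from 51.8 ± 6.5 to 72.0 ± 11.9. Polr1b, a subunit of RNA polymerase I, rose from 36.7 ± 6.89 to 50.6 ± 6.76, and its call was lost without KPAT 3, KPAT 5, KPT 1 or KPT 2.

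Genes of the response to low oxygen were lower in KPAT. When oxygen is low, the factor HIF1 binds ACGTG or GCGTG in promoters and enhancers of its targets. With oxygen, hydroxylases of the EGLN family mark its HIF1A subunit for degradation, and some EGLN genes are themselves targets. The promoters of the 3 members that fell with the smallest p and were in the promoter table are shown, so that the letters can be read beside the levels. Bnip3l ranked among them and was not in that table. They are RefSeq sequences of GRCm38.p6, from 250 bases before to 50 after the start, on the gene's strand, with ACGTG or GCGTG on either strand in capitals (CACGT and CACGC on the strand shown).
Egln3 (chr12:54203825-54204124, minus strand): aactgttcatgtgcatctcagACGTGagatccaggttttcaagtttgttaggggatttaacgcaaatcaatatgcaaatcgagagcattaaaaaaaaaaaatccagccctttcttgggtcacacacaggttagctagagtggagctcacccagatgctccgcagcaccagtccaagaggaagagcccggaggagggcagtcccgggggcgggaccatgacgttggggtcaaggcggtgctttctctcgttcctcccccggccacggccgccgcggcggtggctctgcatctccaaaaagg
Bnip3 (chr7:138909457-138909756, minus strand): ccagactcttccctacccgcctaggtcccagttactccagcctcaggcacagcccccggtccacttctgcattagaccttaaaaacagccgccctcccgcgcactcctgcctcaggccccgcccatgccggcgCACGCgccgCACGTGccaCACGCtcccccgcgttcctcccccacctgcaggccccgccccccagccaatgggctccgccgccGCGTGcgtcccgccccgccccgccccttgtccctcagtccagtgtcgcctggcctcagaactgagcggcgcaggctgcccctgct
Adm (chr7:110627407-110627706, plus strand): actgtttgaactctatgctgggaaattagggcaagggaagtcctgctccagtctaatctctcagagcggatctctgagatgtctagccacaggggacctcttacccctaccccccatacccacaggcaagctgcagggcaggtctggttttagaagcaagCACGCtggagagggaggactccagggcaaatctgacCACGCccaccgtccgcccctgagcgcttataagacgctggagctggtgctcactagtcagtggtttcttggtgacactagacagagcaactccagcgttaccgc
Egln3 held 1 match, Bnip3 5, of which a pair overlap as CACGTG, and Adm 2. Of 39 promoters of the 27 members in the table, 31 held a match (79.5%), beside 43.8% of all 32851 promoters and 58.6% of promoters of tested genes. Among members that fell 16 of 22 promoters held one (72.7%, binomial interval 49.8 to 89.3%). Among those not called 15 of 17 did (88.2%, interval 63.6 to 98.5%). The intervals overlap, some genes have several promoters, and a difference between the shares was not tested. A match describes letters and is not a binding site.

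Of 35 hypoxia response genes tested, 17 fell and 0 rose with limma, edgeR or DESeq2 (1 higher at an unadjusted p under 0.05), with a median of -0.83. Egln3, the hydroxylase gene shown above, was at 268, 361, 61.6, 126 and 266 in KPT and at 43.2, 19.5, 20.3, 17.1 and 14.7 in KPAT (log2 fold change -3.10, SE 0.60, limma adjusted p = 0.00562). KPT 3 was the lowest KPT tumour and still lay above KPAT 1, the highest KPAT tumour. Bnip3, a receptor that marks mitochondria for autophagy, was at 82.6, 145, 22.3, 60.5 and 91.9 in KPT and at 15.2, 10.7, 11.1, 14.9 and 6.45 in KPAT (log2 fold change -2.61, SE 0.54, limma adjusted p = 0.00758). KPT 3 was again the lowest KPT tumour and the groups did not overlap. Adm, the gene of the vasodilator adrenomedullin, was at 105, 138, 5.34, 36.4 and 46.3 in KPT and at 6.77, 3.56, 1.42, 3.29 and 2.80 in KPAT (log2 fold change -3.71, SE 0.83, limma adjusted p = 0.00962). Here KPT 3 lay below KPAT 1, so the groups overlapped. Bnip3l, a relative of Bnip3, fell from 199 ± 47.3 to 121 ± 8.92, and Egln1, the main oxygen-dependent hydroxylase, fell from 137 ± 47.4 to 64.2 ± 6.24. Hif1a (log2 fold change -0.01), Epas1 (-0.03) and Car9 (-0.08) did not pass (adjusted p = 0.966, 0.955 and 0.908 with limma), and these 3 and Egln1 were named after their values were seen. Without KPAT 2, KPAT 5 or KPT 1 the count was 9, and without KPT 2 it was 7. Summed over the list the levels were 5372, 6760.3, 2162, 3469 and 5015 in KPT and 2378, 2523, 2631, 2095 and 2028 in KPAT, so KPT 3 lay within the KPAT range.

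Several glycolytic enzymes are targets of HIF1, and 11 of 29 glycolysis genes fell and 0 rose with limma, edgeR or DESeq2 (3 higher at an unadjusted p under 0.05), with a median of -0.66. Pgk1, phosphoglycerate kinase, was at 738, 939, 481, 869 and 866 in KPT and at 332, 220.0, 284, 252 and 168 in KPAT (log2 fold change -1.63, SE 0.34, limma adjusted p = 0.00758). The groups did not overlap, with KPT 3 lowest in KPT and KPAT 1 highest in KPAT. Aldoa, an aldolase, fell from 1179 ± 269.7 to 478 ± 86.0. Slc2a1, the glucose transporter GLUT1, was at 399, 453, 93.8, 271 and 322 in KPT and at 79.6, 112, 175, 109.6 and 145 in KPAT and did not pass (log2 fold change -1.18, SE 0.44, limma adjusted p = 0.0783); it was named after its values were seen. The count of genes that fell was 6 without KPAT 2, 3 without KPT 1 and 5 without KPT 2. With 1 library left out it reached 14, and the median ran from -0.87 to -0.66. In KAT, Egln3 was at 116, 10.1, 19.5, 12 and 18.3 and Pgk1 at 591, 255, 156, 147 and 145, so KAT 1 stood above the other KAT tumours for both.

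Genes of mitochondrial respiration were lower in part. Of 91 nuclear-encoded respiratory chain genes, 31 fell (median -0.33), among them Ndufv3, a complex I subunit, at 83.6 ± 19.7 in KPT and 45.3 ± 5.69 in KPAT. The count was 18 without KPAT 2, 20 without KPAT 3 and 19 without KPT 1 or KPT 2. With 1 library left out it reached 41, and the median ran from -0.38 to -0.27. Of 12 genes encoded in mitochondrial DNA, 0 passed with limma or edgeR, 2 were lower with DESeq2, and 2 lower and 1 higher had an unadjusted limma p under 0.05. In synthesis of serine, one-carbon units and amino acids, 5 of 26 genes fell and 1 rose (23.1% called, beside 16.5% over all genes). Of this list 2 or 3 fell without KPAT 2, KPAT 3, KPAT 4, KPT 1, KPT 2 or KPT 5. Mthfd1l, a mitochondrial folate enzyme, fell from 58.2 ± 13.2 to 26.7 ± 3.93. In the integrated stress response, the pathway that slows translation under stress, 5 of 26 genes fell (19.2%, beside 7.40% lower over all genes). Among them Ddit3, the gene of the transcription factor CHOP, fell from 32.2 ± 13.2 to 10.5 ± 1.76.

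**Figure D2:**
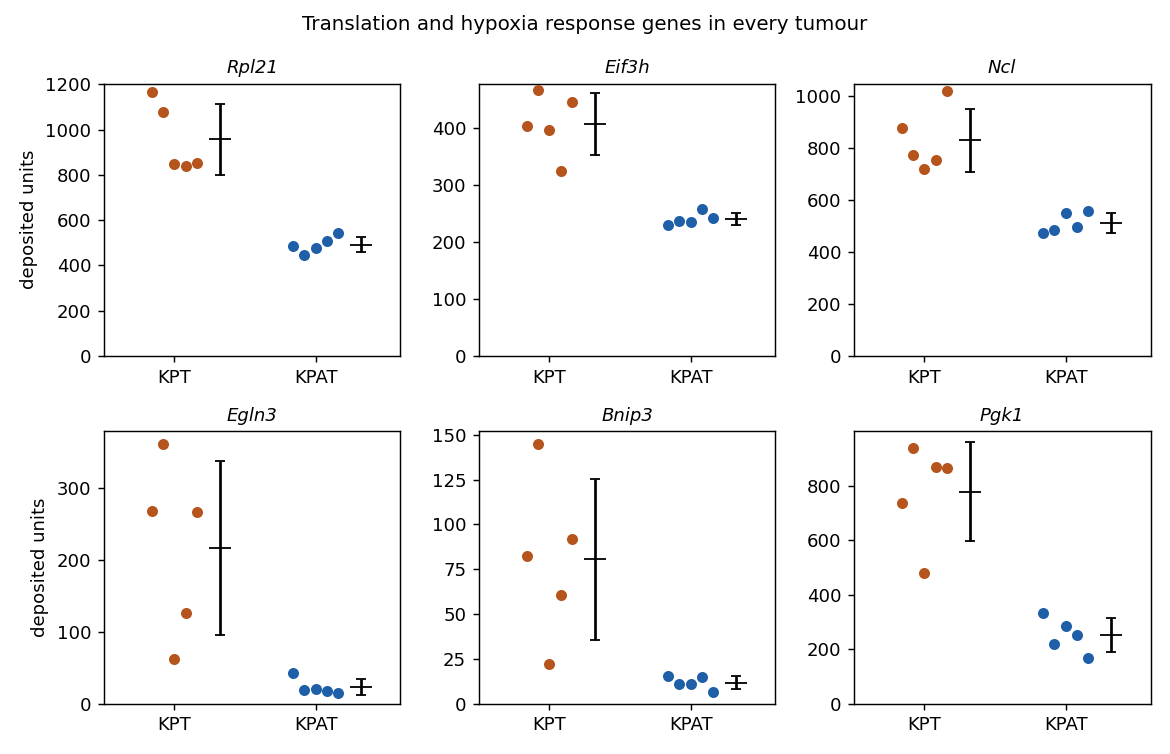
Levels of Rpl21, Eif3h, Ncl, Egln3, Bnip3 and Pgk1 in deposited units on linear axes from 0, 1 point per tumour (5 a group), with the mean and SD beside each group. In each panel every KPAT tumour lies below every KPT tumour, and the lowest KPT point of Egln3 is KPT 3 at 61.6.

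Fibroblast and matrix genes were higher in KPAT. Fibroblasts lay down most of the collagen of pancreatic tumours. Of 19 general fibroblast genes, 9 rose and 0 fell with limma, edgeR or DESeq2 (0 lower at an unadjusted p under 0.05), with a median of 1.29. Their summed levels were 7996, 12269.5, 5968, 9564 and 10134 in KPT and 14789, 28551, 19741, 20184 and 25847 in KPAT. Every KPAT tumour lay above every KPT tumour, with KPAT 2 highest and KPT 3 lowest. The fibroblast level of each library, the mean log2 level of these same 19 genes, was then held constant in the model. With it 256 genes were called in all, 213 of them among the 2752. That fit called 0 genes of the general fibroblast list, an outcome set in advance because the level is made of those genes. It called 0 genes of the collagen, ADAMTS and matricellular lists. Called lower were 22 ribosomal protein, 2 respiratory chain, 2 hypoxia response and 0 glycolysis genes. The level itself differs between the groups, so the fit removes the part of a difference that runs along with it. In that fit the list medians were 0.12 for general fibroblast genes and 0.37 for collagens. They were -0.77 for ribosomal proteins, -0.44 for the respiratory chain, -1.29 for the hypoxia response and -0.81 for glycolysis. For these lower lists calls were lost while the medians did not shrink.

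Pdgfrb, the PDGF receptor of fibroblasts and pericytes, was at 51.7, 62.4, 30.6, 48.7 and 50.8 in KPT and at 110.5, 163, 112, 90.5 and 90.7 in KPAT (log2 fold change 1.21, SE 0.21, limma adjusted p = 0.00349). The groups did not overlap. Col1a2, which encodes 1 of the type I collagen chains, was at 860.3, 1044, 274, 635 and 765 in KPT and at 2068, 3702, 1284, 2547 and 2988 in KPAT (log2 fold change 1.86, SE 0.33, limma adjusted p = 0.00374). KPT 3 was the lowest tumour and KPAT 2 the highest. Of 40 collagens 19 rose and 0 fell with limma or edgeR, 1 was lower with DESeq2, and 1 lower had an unadjusted p under 0.05 (median 1.19). Of 23 ADAMTS proteases and relatives 10 rose (median 1.18). Adamts2, which trims procollagens, was at 43.1, 46.6, 21.9, 32.8 and 33.9 in KPT and at 115, 254, 80.5, 194 and 288 in KPAT (log2 fold change 2.27, SE 0.35, limma adjusted p = 0.00235). Its groups did not overlap, and KPAT 3 was the lowest KPAT tumour. Of 23 matricellular proteins, which signal from the matrix, 10 rose (median 1.11). Ccn4, a secreted target of Wnt signalling, rose from 5.72 ± 1.71 to 25.7 ± 12. Of 13 laminins and nidogens of the basement membrane 6 rose. Of 29 proteoglycan and hyaluronan genes 9 rose and 1 fell. Sdc2, the cell-surface proteoglycan syndecan-2, rose from 26.6 ± 10.4 to 69.0 ± 10.2. In elastic fibres and cross-linking enzymes 7 of 28 rose and 1 fell. The rises were 4 without KPAT 2 or KPAT 5 and up to 9 with 1 other library left out. Of 13 genes of mesothelial cells and antigen-presenting fibroblasts 0 passed with limma or edgeR, 1 was higher with DESeq2, and 2 lower had an unadjusted p under 0.05.

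**Figure D3:**
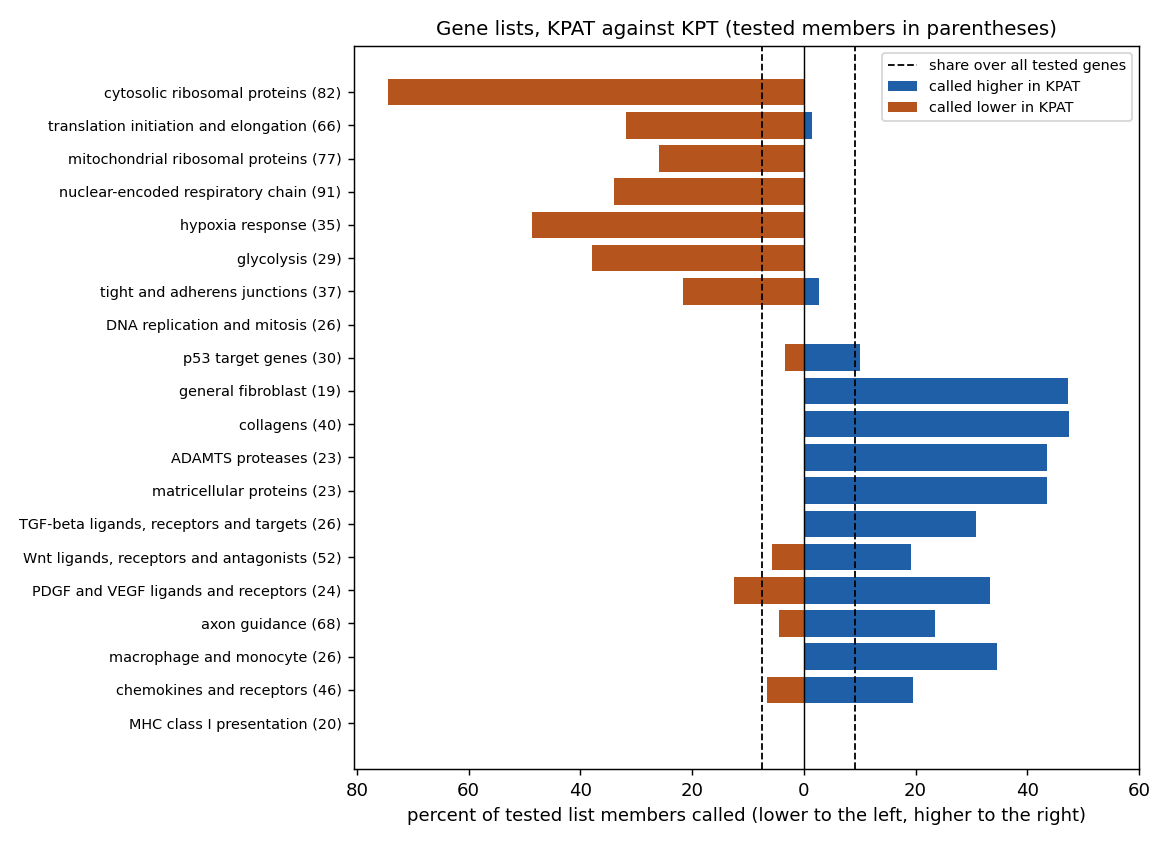
Percent of the tested members of 20 gene lists called lower (left, orange) or higher (right, blue) in KPAT, with dashed lines at 7.40% and 9.13% of all tested genes. Cytosolic ribosomal proteins reach furthest to the left (61 of 82) and collagens (19 of 40) and general fibroblast genes (9 of 19) furthest to the right among the lists drawn.

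Ligands and receptors of several signalling families were called. With the fibroblast level held constant, 0 genes of the Wnt, PDGF and VEGF, axon guidance, Notch, TGF-beta and Hippo lists were called higher. In that fit 1 each of the macrophage and chemokine lists was called higher. The list medians of that fit, in the order named, were 0.04, 0.12, 0.20, 0.28, 0.29, 0.15, 0.74 and 0.35. In the Wnt family, whose ligands act through Frizzled receptors, 10 of 52 genes rose and 3 fell. The rises were 5 without KPAT 2 and 6 without KPT 3, and up to 13 with 1 other library left out. Wnt5a, a ligand of the beta-catenin-independent branch, was at 20.6, 30.5, 15.8, 40.5 and 7.57 in KPT and at 64.2, 71.0, 83.9, 124 and 173 in KPAT (log2 fold change 2.28, SE 0.39, limma adjusted p = 0.00344). All KPAT tumours lay above KPT 4, the highest KPT tumour. Dkk2, a secreted modulator of Wnt receptors, rose from 20 ± 4.45 to 92.1 ± 23.6, and the receptor gene Fzd8 rose from 6.42 ± 2.49 to 16 ± 3.08.

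Of 24 PDGF, VEGF and related vascular genes, 8 rose and 3 fell (45.8% called, beside 16.5% over all genes). Without KPAT 2 the rises were 3, and without KPT 1, KPT 2 or KPT 3 they were 5. The rises were the receptor genes Nrp1, Aplnr, Pdgfrb, Tek and Kdr and the ligand genes Angpt1, Angpt4 and Vegfc. Aplnr, the apelin receptor of vessels, was at 8.14 ± 2.03 in KPT and 44.2 ± 18.5 in KPAT. The 3 that fell were ligands. Pgf, placental growth factor, fell from 25.8 ± 11.9 to 5.71 ± 2.09, Vegfa, the main vessel growth factor, fell from 478 ± 158 to 229 ± 71.0, and Angpt2, a ligand of the vessel receptor TIE2, fell from 12.8 ± 5.10 to 5.45 ± 2.66. Vegfa lost its call without KPAT 5, KPT 1 or KPT 2, and Angpt2 without KPAT 4, KPAT 5, KPT 1, KPT 2, KPT 3 or KPT 5.

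Axon guidance genes steer growing axons and also act in vessels and tumours. Of 68 tested, 16 rose and 3 fell (27.9% called, beside 16.5% over all genes). Nrp1, a co-receptor of semaphorins and VEGF, rose from 28.3 ± 5.91 to 76.5 ± 19.7, and Epha4, an ephrin receptor, rose from 11.5 ± 7.22 to 48.2 ± 15.3. Efna1, an ephrin ligand, was at 328, 286, 88.4, 178 and 121 in KPT and at 60.4, 51.2, 57.1, 66.3 and 45.7 in KPAT (log2 fold change -1.68, SE 0.29, limma adjusted p = 0.00352). The KPAT tumours lay within a narrow range below KPT 3, the lowest KPT tumour. Of 23 Notch genes 7 rose and 1 fell (34.8% called, beside 16.5% over all genes). Rises were 2 without KPAT 2, 3 without KPAT 3 and 4 without KPAT 5 or KPT 3. Without KPAT 2, 916 of all 16648 tested genes rose, beside 1520 in the main fit. Jag1, a Notch ligand, was at 42.0, 53.8, 36.1, 75.2 and 62.8 in KPT and at 96.0, 128, 334, 88.4 and 88.3 in KPAT, so KPAT 3 stood far above the other tumours. Of 26 TGF-beta genes 8 rose (30.8%, beside 9.13% higher over all genes), 5 without KPAT 3. Of 16 EGF receptor family genes 1 rose and 2 fell (18.8% called, beside 16.5% over all genes), with a median of 0.08 and 10 members above 0. Among those that fell, the receptor gene Erbb2 went from 252 ± 43.1 to 154 ± 23.6.

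Immune genes changed in part. Of 26 macrophage and monocyte genes 9 rose and 0 fell with limma, edgeR or DESeq2 (1 lower at an unadjusted p under 0.05). That is 34.6% called, beside 16.5% over all genes. The rises were 3 without KPAT 2 or KPT 1 and 4 without KPAT 1, KPAT 3, KPT 2 or KPT 4. Csf1, the main growth factor of macrophages, was at 18.3, 16.2, 19.4, 26.5 and 25 in KPT and at 43.4, 74.3, 40.1, 33.4 and 40.1 in KPAT (log2 fold change 1.1, SE 0.23, limma adjusted p = 0.00803). The groups did not overlap, with KPAT 2 highest. Sirpa, the myeloid receptor of the CD47 signal, rose from 47.2 ± 9.51 to 92.6 ± 8.77. Of 46 chemokines and receptors 9 rose and 3 fell (26.1% called, beside 16.5% over all genes). Ccl2, which attracts monocytes, rose from 2.86 ± 2.28 to 15.2 ± 8.23, Ccl11, which attracts eosinophils, rose from 2.25 ± 1.42 to 18.5 ± 12, and Cxcl2, which attracts neutrophils, fell from 9.47 ± 4.10 to 2.54 ± 1.03. Mcpt8, a basophil protease, was at 2.36, 14.3, 3.08, 8.67 and 5.39 in KPT and at 19.4, 31.0, 222, 108 and 119.9 in KPAT (log2 fold change 3.68, SE 0.80, limma adjusted p = 0.00887). KPAT 3 was highest, and all KPAT tumours lay above KPT 2, the highest KPT tumour. Of 13 mast cell, basophil and eosinophil genes 3 rose (23.1%, beside 9.13% higher over all genes), with a median of 0.29. Of 16 B and plasma cell genes 0 passed with limma or edgeR and 1 was lower with DESeq2, with 0 at an unadjusted p under 0.05. Of 20 genes of MHC class I presentation 0 passed with limma or edgeR and 1 was lower with DESeq2, with 2 lower at an unadjusted p under 0.05.

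Epithelial genes were lower in part. Of 37 tight and adherens junction genes 8 fell and 1 rose (24.3% called, beside 16.5% over all genes). The median was -0.37, and 5 were lower without KPAT 4, KPAT 5 or KPT 1. Crb3, a polarity protein of the apical membrane, was at 86.9, 62.9, 66.3, 61.2 and 73.5 in KPT and at 51.4, 46.7, 42.0, 42.9 and 44.0 in KPAT (log2 fold change -0.62, SE 0.11, limma adjusted p = 0.00461). The groups did not overlap. The summed level of ductal genes, the defining markers of the tumour type, was 23827, 17696, 14682, 17757 and 16967 in KPT and 14882, 14212, 15706, 16359 and 16388 in KPAT, so the markers were present in every tumour and the groups overlapped. Foxa1, a transcription factor of endoderm, was at 103, 33.2, 55.5, 25.4 and 187 in KPT and at 3.59, 3.67, 19.7, 8.79 and 2.98 in KPAT (log2 fold change -3.39, SE 0.71, limma adjusted p = 0.00801). KPT 5 was highest, and all KPAT tumours lay below KPT 4, the lowest KPT tumour. Cdx2, a transcription factor of the intestine, was at 74.9, 5.95, 22.8, 7.40 and 16.8 in KPT and at 0.252, 1.89, 0.327, 0.268 and 0.487 in KPAT, with KPT 1 highest. Of 22 intestinal genes 3 fell (13.6%, beside 7.40% lower and 16.5% called over all genes), with a median of -1.70. With 1 library left out 2 to 5 of the 22 fell. Of 30 gastric and classical pancreatic cancer genes, 2 rose and 2 fell, with a median of -0.27 and 20 members below 0. That is 13.3% called, below the 16.5% over all genes. Those that fell were Foxa1 and Cldn18, a gastric claudin, and those that rose were Onecut3, a transcription factor, and Tff2, a peptide of stomach mucus, which rose from 301 ± 87.4 to 1591 ± 845.

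The genes with the smallest p included several outside the lists. These were taken only where KPT and KPAT did not overlap, so their separation was set by the choice. Cep85 (ENSMUSG00000037443, chromosome 4, 134129858 to 134187112), which encodes a centrosomal protein, was at 19.2, 30.9, 37.2, 147 and 21.8 in KPT and at 1702, 486, 1016, 2173 and 1425 in KPAT (log2 fold change 5.02, SE 0.47, limma adjusted p = 3.36e-04). All KPAT tumours lay above KPT 4, which stood apart from the other KPT tumours, and KAT tumours were at 408 to 514. Camk2b, a subunit of a calcium-dependent kinase, was at 1.05, 0.256, 0.270, 0.440 and 1.20 in KPT and at 2.83, 21.1, 24.6, 17.0 and 14.5 in KPAT (log2 fold change 4.48, SE 0.55, limma adjusted p = 0.00126). KPAT 1 was the lowest KPAT tumour and lay above all KPT tumours. Kif7, a kinesin of Hedgehog signalling, rose from 1.69 ± 0.308 to 6.54 ± 1.95, and Rexo2, a mitochondrial exonuclease, rose from 32.3 ± 4.71 to 77.3 ± 15.6. Arl10, Oaf, Prune2, Zfp46, Otulinl and Mmp19 rose by 1.05 to 1.81 on the log2 scale. Among lower genes, Ing2, a reader of histone marks, fell from 33.5 ± 7.09 to 15.2 ± 2.75, and Car8, a carbonic anhydrase relative, fell from 60.8 ± 25 to 14.3 ± 6.0. Smtnl2 fell from 31.0 ± 11.8 to 4.05 ± 1.19. The log2 fold changes of Mphosph6, Cmbl, Akr1c19, Rida and Iqcb1 lay between -1.82 and -1.04.

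KPAT and KAT differ by floxed Trp53, and in the same model 8 of 16648 genes passed between them (0.0481%), 6 of them higher (0.0360%) and 2 lower in KPAT (0.0120%), among them Trp53 (log2 fold change of KPAT minus KAT -1.58, limma adjusted p = 6.05e-05). That count depended on the method, with 7 by edgeR and 284 by DESeq2. The KPAT tumours are shared with the main comparison, so values are given side by side. KAT library numbers lie nearer to those of KPAT than to those of KPT. A likeness of KPAT and KAT along those numbers cannot be told apart from the floxed Arf that they share. The list medians, KPAT minus KPT and then KPAT minus KAT, were -0.65 and 0.11 for ribosomal proteins, -0.83 and -0.03 for the hypoxia response, 1.29 and -0.04 for general fibroblast genes, and 1.19 and 0.21 for collagens. For macrophage and monocyte genes they were 0.57 and -0.65.

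Position along the genome was described by the median log2 difference of each chromosome's genes in each tumour. Chromosome 9 had the largest difference between the groups, with a median 0.33 higher in KPAT (exact two-sided permutation p = 0.00794, the smallest that 252 splits allow), which did not pass after adjustment over the 20 chromosomes (adjusted p = 0.159). Of 935 genes tested there, 206 rose and 34 fell, while over all genes 9.13% rose and 7.40% fell. Set against the mean of the KAT tumours, chromosome 9 lay at -0.56, -0.23, -0.55, -0.30 and -0.40 in KPT and at -0.18, -0.09, -0.05, -0.02 and 0.02 in KPAT. Without KPT 1, KPT 3 and KPAT 5 together the median difference was 0.21.

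**Figure D4:**
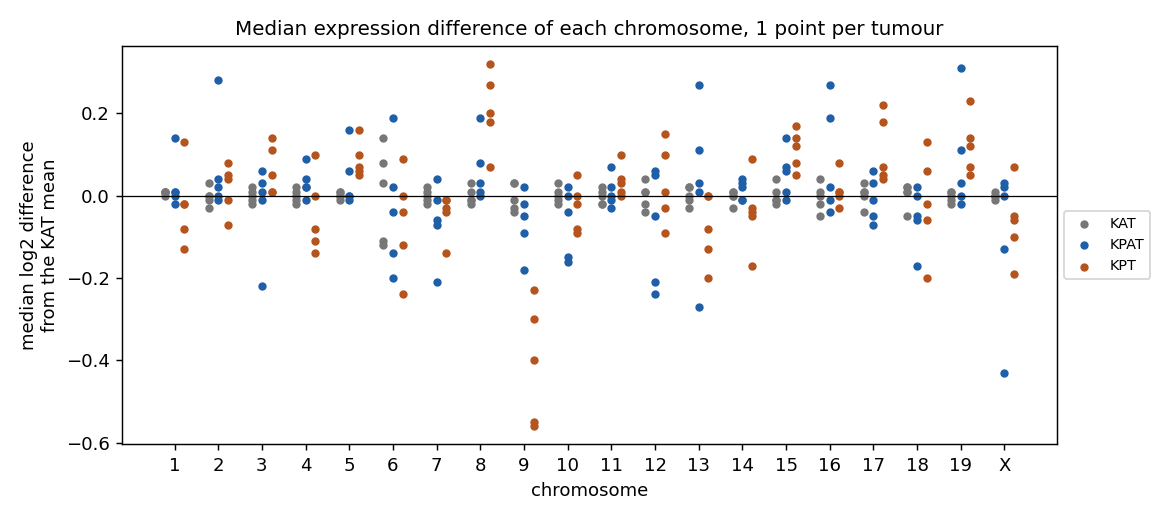
Median log2 difference of each chromosome's tested genes from the mean of the KAT tumours, 1 point per tumour. On chromosome 9 the KPT tumours lie at -0.56 to -0.23, below all KPAT tumours, and KAT points lie near 0 in part because their own mean is the reference.

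The chromosome was then divided at base 40000000, a place chosen after the values were seen. Beyond it 195 of 744 genes rose (26.2%) and 12 fell, and the tumours lay at -0.61, -0.32, -0.61, -0.37 and -0.52 in KPT and at -0.22, -0.10, -0.06, -0.01 and 0.01 in KPAT. Before it 11 of 191 genes rose (5.76%) and 22 fell (11.5%), beside 9.13% and 7.40% over all genes. Within that first stretch 12 tested genes from Dcun1d5 to Yap1 (GRCm38 chromosome 9, 7184520 to 8004596) lay at 0.36, 1.16, 0.30, 1.84 and 1.16 in KPT and at 0.05, 0.28, 0.28, -0.41 and -0.24 in KPAT. All KPT tumours lay above all KPAT tumours, with KPT 4 highest and KPT 3 at 0.30 beside KPAT 2 and KPAT 3 at 0.28. The stretch was also chosen after the values were seen, so this separation follows in part from the choice. Of the 12 genes 3 had log2 fold changes above 0, Mmp13 (0.60), Mmp12 (1.14) and Mmp3 (1.43), and these did not pass.

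In that stretch 5 genes fell. Yap1, the growth-promoting co-activator of the Hippo pathway, was at 147, 398, 195, 1157 and 285 in KPT and at 115, 136, 131, 128 and 169.8 in KPAT (log2 fold change -1.28, SE 0.39, limma adjusted p = 0.0355). KPT 4 stood far above the rest, KPT 1 lay within the KPAT range, and the call was lost without KPAT 1, KPAT 2, KPAT 3, KPAT 4 or KPT 2. Birc2, an inhibitor of apoptosis, was at 46.8, 108, 65.4, 261 and 111 in KPT and at 47.3, 38.2, 39.2, 39.3 and 37.7 in KPAT (log2 fold change -1.30, SE 0.32, limma adjusted p = 0.0156), and KPT 1 lay within the KPAT range. Birc3, its close relative, was at 75.0, 84.7, 56.1, 358 and 80.7 in KPT and at 41.7, 40.8, 39.2, 38.3 and 26.9 in KPAT (log2 fold change -1.44, SE 0.37, limma adjusted p = 0.0172), with no overlap. Tmem123, the membrane protein porimin, was at 143, 362, 159.7, 853 and 337 in KPT and at 119, 124, 109, 89.0 and 79.9 in KPAT (log2 fold change -1.54, SE 0.36, limma adjusted p = 0.0124), with no overlap. Dcun1d5, a factor of protein neddylation, had a log2 fold change of -0.86 (limma adjusted p = 0.0392), and its call was lost without KAT 4, KPT 2, KPT 4, KPT 5 or any 1 of the KPAT tumours. The region was picked by looking along the genome, and it is 1 of many. Among 16453 runs of 8 neighbouring genes, 39 lay above the KAT mean by over 1.1 in at least 3 KPT tumours, at 8 places on 6 chromosomes, and 416 lay below it at 68 places. In KPAT 0 runs lay above and 153 below. Several of the KPT runs hold neighbours of 1 gene family, such as Sprr, Oas and keratin genes above the KAT mean. Below it they include Igkv, Hoxa and Gimap genes, so the counted runs are not all alike. Copy number was not measured. Of the other Hippo genes, Stk4 and Tead1, a kinase and a DNA-binding partner of the pathway, were among 6 that rose (3 without KPAT 2). The Hippo list held 25 tested genes, 28.0% of them called, beside 16.5% over all genes.

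**Figure D5:**
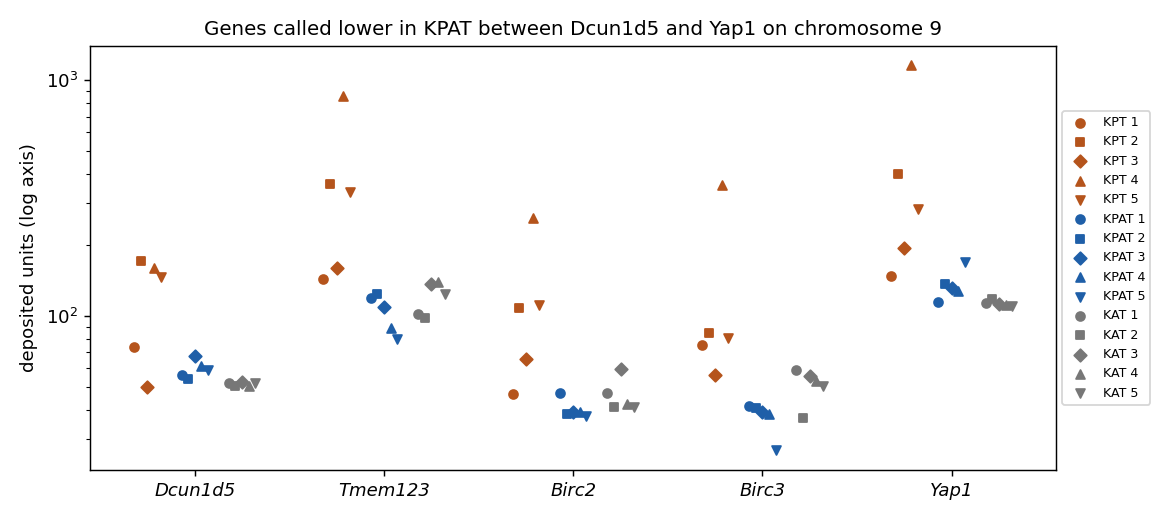
Levels of the 5 genes that fell between Dcun1d5 and Yap1 on chromosome 9, in deposited units on a log axis, 1 symbol per tumour with the marker giving the tumour's number. KPT 4 is the highest tumour for Tmem123, Birc2, Birc3 and Yap1 (1157 for Yap1), and in all 5 genes KPT 2, KPT 4 and KPT 5 lie above every KPAT and KAT tumour.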

How the data were processed

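Per the labels' protocols, RNeasy midi kits gave the tumour RNA, and TruSeq RNA libraries were read on a HiSeq4000. The submitters' processing notes name HISAT2 2.0.4 and mm10 (GRCm38). For counting tool, annotation, strand and normalization the sources used here give no name. The signal values deposited by the authors cover 20636 genes in 15 libraries. In these values 100% lay within 0.01 of a whole number of reads over 1 factor per library, and 20574 gene IDs had a GENCODE symbol.

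All values were multiplied by 19.478, the same factor for every library, to bring them to the scale of reads. Genes averaging at least 10 entered limma 3.58.1 (R 4.3.3) as log2(value + 1), with 1 mean per group over the 15 libraries, a trended prior and Benjamini-Hochberg adjustment. The model was tested on simulated data. Chromosome medians used exact permutation tests. edgeR 4.0.16 and DESeq2 1.42.0 were run on recovered reads as alternatives.

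Tumours were grouped by their labels, while the comparison, the 80 gene lists and the tests were chosen with earlier results of these data known. Named genes are Trp53, Cdkn2a, and the 10 higher and 10 lower protein-coding genes with the smallest p. These had to change by at least 1 on the log2 scale, reach 100 normalized counts in the higher group and not overlap, with predicted, Y-linked and Xist genes passed over. Up to 3 called members per list and direction were added, or the member with the smallest p where none was called, and the promoter rule added Adm. Genes outside this rule were named after their values were seen: Mdm2, Cdkn1a, Gm8730, Hif1a, Epas1, Car9, Egln1, Slc2a1, Tmem123, Birc2, Birc3, Dcun1d5, and those of the PDGF and VEGF list named without values. Some genes that the rule takes are not reported here.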

Additional observations from a re-analysis of the deposited data

Results flagged for a closer look

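Among 286 checks of 1 gene in 1 group (143 genes, KPT and KPAT), a tumour stood apart from the other 4 of its group in 20, by the size of its gap to the nearest value. Chance alone marks about 1 in 20 such checks. In KPT, Cdkn2a was at 216 in KPT 3, the lowest, beside 304 to 335 in the others. Otulinl was at 6.80 in KPT 3, the highest, beside 3.51 to 4.05 in the others. Tgfbi was at 97.6 in KPT 1, the highest, beside 54.5 to 62.4 in the others. Snai1 was at 2.70 in KPT 3, the lowest, beside 7.80 to 9.69 in the others. Cbs was at 2.36 in KPT 1, the lowest, beside 6.12 to 6.91 in the others. Bag3 was at 115 in KPT 1, the highest, beside 87.5 to 91.4 in the others. Hspa9 was at 696 in KPT 3, the highest, beside 487 to 535 in the others. Birc3 was at 358 in KPT 4, the highest, beside 56.1 to 84.7 in the others.

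In KPAT, Camk2b was at 2.83 in KPAT 1, the lowest, beside 14.5 to 24.6 in the others. Otulinl was at 11.9 in KPAT 1, the lowest, beside 15.3 to 16.2 in the others. Tnni2 was at 34.7 in KPAT 1, the highest, beside 15.6 to 18.7 in the others. Col5a2 was at 888 in KPAT 2, the highest, beside 469.7 to 562 in the others. Fbn1 was at 634 in KPAT 2, the highest, beside 277 to 351 in the others. Ly75 was at 2.37 in KPAT 5, the lowest, beside 6.37 to 7.74 in the others. Thy1 was at 88.1 in KPAT 3, the lowest, beside 231 to 320.1 in the others. Spp1 was at 2520.5 in KPAT 1, the lowest, beside 4158 to 4874 in the others. Ctsk was at 31.0 in KPAT 3, the lowest, beside 82.8 to 108 in the others. Hist1h1e was at 0.487 in KPAT 5, the highest, beside 0.134 to 0.185 in the others. Birc2 was at 47.3 in KPAT 1, the highest, beside 37.7 to 39.3 in the others. Birc3 was at 26.9 in KPAT 5, the lowest, beside 38.3 to 41.7 in the others. Why these tumours stood apart was not tested.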

How the results depend on the processing

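Of 235 called genes taken by the naming rule, edgeR called 218, DESeq2 233 and the fits that left out 1 library 179 (without KPAT 2) to 226 (without KAT 2), while 39 were called with the fibroblast level as a covariate and 102 without KPT 1, KPT 3 and KPAT 5 together (tumours singled out by an earlier analysis of these data). The 2752 calls became 256 with the fibroblast covariate (118 higher, 138 lower), 1811 in a model of only KPT and KPAT (986 higher), 738 without the 3 tumours (387 higher, 351 lower) and 1686 (without KPAT 2) to 2896 with 1 library left out, where higher calls ran from 916 to 1605 and lower calls from 770 to 1291. On the deposited scale, an alternative chosen after the values were seen, 1012 were higher, and DESeq2 called 1892 lower. The higher share of calls was 55.2%, 47.7% on the deposited scale and 46.1% with the fibroblast covariate. The 8 genes between KPAT and KAT became 284 with DESeq2, 515 with array weights, 124 with the ductal level as a covariate, 17 with quantile scaling and 4 on the deposited scale, and with 1 library left out 7 to 36 (without KAT 2). With the fibroblast covariate the log2 fold change was -0.27 for Gli2, -0.11 for Thy1 and -0.61 for Gzmc, and with the ductal covariate 0.28 for Alas2 and -0.09 for Mdm2, which was also at -0.09 without the 3 tumours. The cause was not tested. With ACGTG as the only motif 51.3% of hypoxia response promoters held a match. The replicate number as a block gave 2248 calls. For KPT and KPAT tumours of the same number, deviations from the group means correlated at 0.218, 0.078, 0.103, 0.017 and -0.126. KPT 1 and KPAT 1 were each other's closest match, and no other number matched both ways. These values cannot show whether tumours of the same number shared a litter or a day.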
